A study of Mus musculus with 16 samples.

Results

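The insulin-like growth factor (IGF) axis was described by 10 genes: the ligand Igf1, the carrier subunit gene Igfals, the receptor genes Ghr, Igf1r and Igf2r, and the binding protein genes Igfbp1, Igfbp3, Igfbp4, Igfbp5 and Igfbp7. They were taken by symbol from probesets annotated to a single symbol, and a symbol's probeset was chosen by its mean deposited level over the 16 arrays, the highest being used. Each of the 10 had exactly 1 such probeset, so that mean excluded none and no threshold was applied. They are 10 of the 30142 genes tested. The genes themselves were picked with earlier results of these data known, so the adjusted p-values below describe them and are not independent support.

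RNA was measured on Affymetrix arrays, 1 per mouse, in glomerular extracts of kidney cortex from 16 female mice. Of these, 8 were wild type C57Bl/6 and 8 were B6.ERαKO, the strain named for loss of oestrogen receptor alpha, and all groups share the C57Bl/6 background and the female sex. Each genotype gave 2 untreated mice and 2 at each of 3 times, 18 hours, 6 days and 2 weeks, after an intraperitoneal dose of 8 ul sheep nephrotoxic serum per g, an antiserum against the glomerular basement membrane that starts nephritis. The series asks how this receptor bears on lipid metabolism and glomerulonephritis. How the receptor gene was disrupted is not given in the sources used here. Each array started from 10 ng of RNA. The labels give 2 separate mice per group, so the spread between replicates includes that between animals, but 2 arrays limit its precision.

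The following checks bear on every value below. Esr1, which encodes the receptor, was not lower in the arrays labelled knockout. It stood between 6.35 and 7.53 in wild type and between 7.11 and 7.64 in knockout. The highest wild type and the lowest knockout level were those of the arrays labelled 18 hours replicate 2. Without these arrays, Esr1 was higher in knockout without overlap (wild type up to 7.04, knockout from 7.29), as were 0.484% of all genes. Which part of the gene its probeset covers is not given. Genes with higher levels in male than in female mouse kidney had a list mean between 8.90 and 9.68 in every wild type array but the one labelled 18 hours replicate 2, at 15.91, and between 12.10 and 16.23 in every knockout array but the one labelled 18 hours replicate 2, at 8.79. Both of these arrays thus sat with the other genotype in that list. Genes with higher levels in female kidney had list means of 9.93 and 14.11 in the same 2 arrays, against 13.64 to 14.32 in the other wild type arrays up to 6 days and 7.84 to 9.80 in the other knockout arrays. That list does not split all arrays by genotype, since wild type at 2 weeks stood at 10.25 and 11.23. Tubule injury markers averaged 6.63 in knockout 2 weeks replicate 1 and 9.46 in replicate 2. Labels were kept, and results are given for all 16 arrays, for 14 (without both 18-hour arrays numbered 2), for 13 (also without knockout 2 weeks replicate 1) and for 12 (without any 18-hour array), settings chosen after the data were seen. Proximal tubule markers had list means between 13.35 and 16.43, so the extracts carried tubule RNA besides that of the labelled glomeruli, in which 9 of 12 listed podocyte markers were measured (list means 8.84 to 11.02). In bulk extracts, fewer cells of a type and less RNA per cell cannot be told apart.

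As background, growth hormone binds the growth hormone receptor, which works through the kinase JAK2 and the STAT5 factors to raise transcription of Igf1, Igfals, Socs2 and Cish. IGF1 signals through the IGF1 receptor, and in blood most of it travels in a complex with IGFBP3 or IGFBP5 and the acid-labile subunit encoded by Igfals. The other binding proteins hold IGFs locally or release them after cleavage, and the IGF2 receptor carries IGF2 and mannose 6-phosphate proteins to lysosomes. In the kidney, the growth hormone receptor and Igf1r are found in tubule and glomerular cells, and IGF1 is known to raise glomerular filtration.

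The promoter windows of Igfals, Igfbp1, Igf1 and Igf1r are shown because these 4 members passed the genotype test once the 2 discordant 18-hour arrays were set aside. The windows come from RefSeq (GRCm38.p6), run 5′ to 3′ on the plus strand, which is the coding strand of all 4 genes, and span 250 bases before to 50 bases after an annotated start. They lie at chr17:24877594-24877893 (Igfals, the most upstream of its 3 windows), chr11:7197537-7197836 (Igfbp1), chr10:87860861-87861160 (Igf1) and chr7:67952007-67952306 (Igf1r). Capitals mark matches on either strand to GGTCA (one arm of an oestrogen response element), TTCNNNGAA (a STAT-type site) and CAAAACA (the core of an insulin response sequence).
Igfals: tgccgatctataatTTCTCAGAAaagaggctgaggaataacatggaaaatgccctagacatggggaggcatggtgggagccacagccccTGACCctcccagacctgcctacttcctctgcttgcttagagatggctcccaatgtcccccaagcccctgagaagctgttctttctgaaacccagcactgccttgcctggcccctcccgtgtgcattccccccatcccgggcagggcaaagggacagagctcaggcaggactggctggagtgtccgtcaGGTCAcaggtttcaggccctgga
Igfbp1: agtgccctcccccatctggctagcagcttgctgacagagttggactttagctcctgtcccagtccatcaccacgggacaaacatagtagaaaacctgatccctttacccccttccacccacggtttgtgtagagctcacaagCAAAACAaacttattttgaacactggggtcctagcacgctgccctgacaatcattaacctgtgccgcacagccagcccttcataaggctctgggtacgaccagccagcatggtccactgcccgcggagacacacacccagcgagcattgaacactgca
Igf1: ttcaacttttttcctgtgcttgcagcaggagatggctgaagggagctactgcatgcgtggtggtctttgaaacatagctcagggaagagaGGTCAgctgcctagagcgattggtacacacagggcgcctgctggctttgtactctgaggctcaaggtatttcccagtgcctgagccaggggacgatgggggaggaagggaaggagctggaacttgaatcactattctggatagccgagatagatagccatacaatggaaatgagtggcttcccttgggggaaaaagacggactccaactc
Igf1r: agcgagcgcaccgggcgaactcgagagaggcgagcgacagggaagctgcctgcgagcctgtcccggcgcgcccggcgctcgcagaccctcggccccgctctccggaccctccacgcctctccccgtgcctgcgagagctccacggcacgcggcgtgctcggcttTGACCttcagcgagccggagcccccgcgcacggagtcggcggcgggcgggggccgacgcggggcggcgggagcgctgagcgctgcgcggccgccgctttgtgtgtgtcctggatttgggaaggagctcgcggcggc

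All 10 members had a window in the RefSeq table, 13 windows in all. The arm GGTCA was in 6 of the 13, against 40.5% of 32851 windows of the same length, so its presence does not set the members apart. TTCNNNGAA was in 2 of 13, both among the 3 windows of Igfals, against 8.3% of all windows. CAAAACA was in 1, that of Igfbp1, against 6.28%. The full palindromic element, GGTCA followed 3 bases on by TGACC, was in none of the 13 and in 0.07% of all windows. No motif overlapped another in the windows shown. These matches are letters in a window, and binding was not measured.

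The first comparison asks which members differed between the genotypes over the 4 times. The largest average difference among the 10, over 16 and over 14 arrays, was that of Igfals, whose product is a subunit of the circulating IGF complex, which was lower in the arrays labelled knockout. In wild type, Igfals stood at 10.32 and 9.81 untreated, 10.27 and 7.01 at 18 hours, 11.22 and 10.17 at 6 days, and 6.71 and 8.02 at 2 weeks, in deposited log2 units for replicates 1 and 2. In knockout it stood at 6.79 and 6.66 untreated, 6.64 and 9.73 at 18 hours, 7.17 and 7.17 at 6 days, and 6.54 and 6.15 at 2 weeks. The genotypes did not overlap untreated, at 6 days or at 2 weeks, and at 18 hours each replicate 2 array lay near the other genotype's replicate 1. With 2 arrays on each side, lack of overlap is frequent: untreated, 21.7% of all genes lay lower in knockout and 24.2% higher. The shares at 6 days and 2 weeks are not given here. Lack of overlap within a time is therefore only a description, for this and the other members. Averaged over the 4 times, the knockout minus wild type difference was -2.08 ± 0.52 (SE; limma adjusted p = 0.25) over 16 arrays and -2.88 ± 0.24 (adjusted p = 0.000793) over 14. It was -3.34 untreated and -3.52 at 6 days in both settings. Over 14 arrays both differences passed (limma adjusted p = 0.0269 and 0.0171), while over 16 neither did (0.902 and 0.919).

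**Figure D1:**
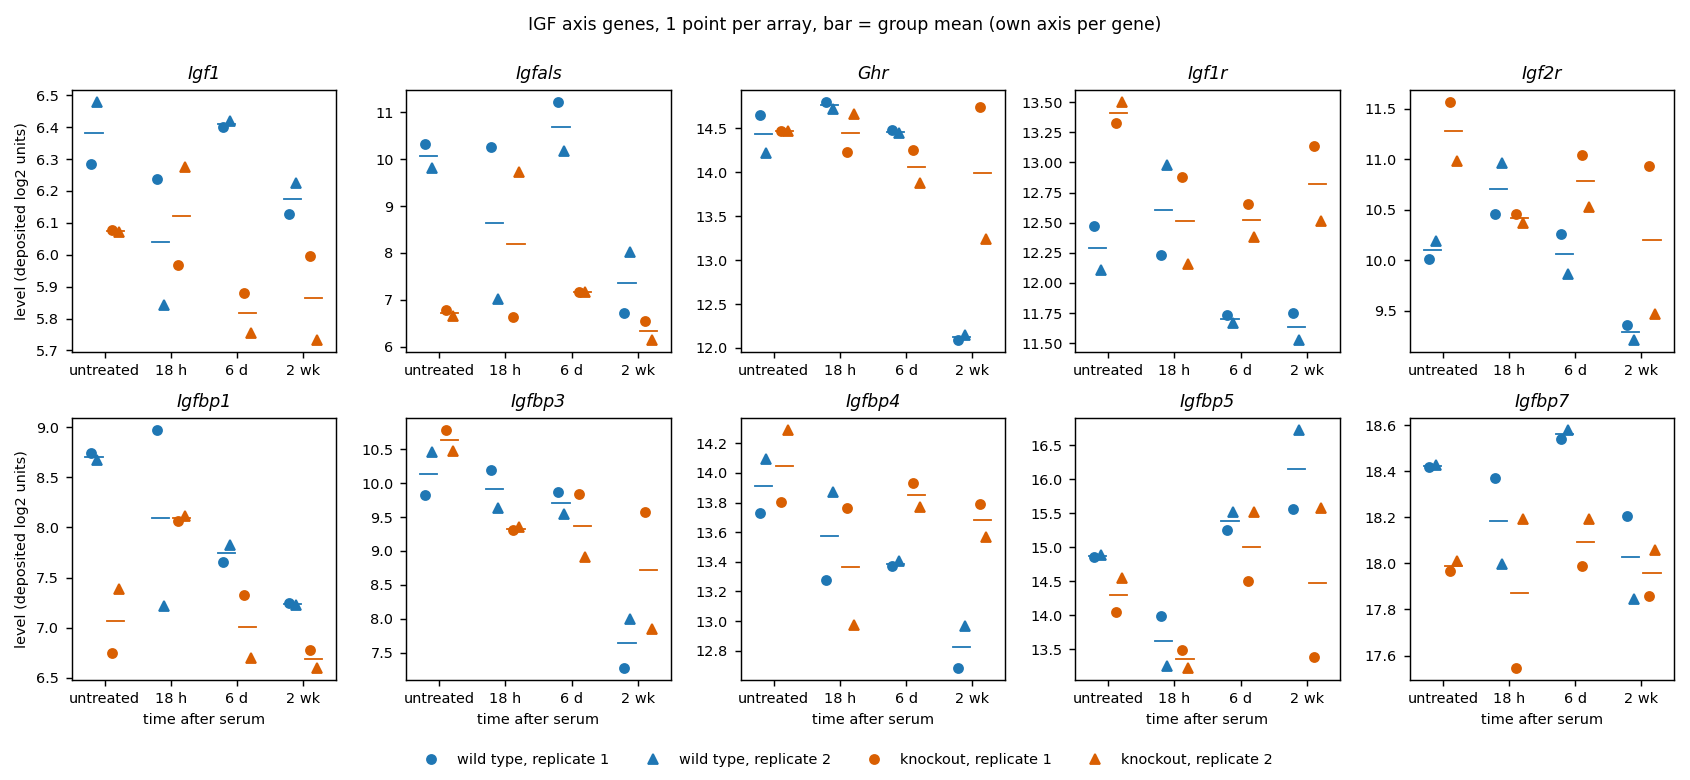
Deposited log2 level of each of the 10 genes (vertical axes, 1 panel per gene) in the 8 groups (horizontal axis, by time after serum). Wild type arrays are blue and knockout arrays orange, with replicate 1 as circles and replicate 2 as triangles; Igfals at 18 hours shows replicate 2 of each genotype near replicate 1 of the other.

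Igf1 itself, the ligand, differed little in size. In wild type it stood at 6.28 and 6.48 untreated, 6.24 and 5.84 at 18 hours, 6.40 and 6.42 at 6 days, and 6.13 and 6.22 at 2 weeks. In knockout its levels were 6.08 and 6.07 untreated, 5.97 and 6.28 at 18 hours, 5.88 and 5.75 at 6 days, and 6.00 and 5.73 at 2 weeks. Without the discordant 18-hour pair, every one of the 7 knockout arrays lay below every one of the 7 wild type arrays. Igf1 was the only member for which this held, and 0.514% of all genes were lower in this way. In the other direction no member was above wild type in all arrays, against 0.484% of genes. The average difference was -0.28 ± 0.08 (limma adjusted p = 0.264) over 16 arrays and -0.37 ± 0.07 (adjusted p = 0.0377) over 14. Its levels lay within 1 log2 unit of the array medians (5.57 to 5.90), and no detection call is given in the files, so whether Igf1 was above background on every array is unknown.

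The average genotype differences of the receptor genes Igf1r and Igf2r ran the other way, though that of Igf2r did not pass over 16 or over 14 arrays. Igf1r, the tyrosine kinase receptor of IGF1, stood in wild type at 12.48 and 12.11 untreated, 12.23 and 12.98 at 18 hours, 11.73 and 11.66 at 6 days, and 11.75 and 11.53 at 2 weeks. Its knockout levels were 13.33 and 13.50 untreated, 12.88 and 12.16 at 18 hours, 12.66 and 12.38 at 6 days, and 13.14 and 12.51 at 2 weeks. Knockout lay above wild type without overlap at every time but 18 hours. The average difference was 0.76 ± 0.16 (limma adjusted p = 0.218) over 16 arrays and 0.94 ± 0.14 (adjusted p = 0.0141) over 14. Igf2r, the lysosomal sorting receptor that clears IGF2, stood in wild type at 10.01 and 10.19 untreated, 10.46 and 10.96 at 18 hours, 10.26 and 9.87 at 6 days, and 9.36 and 9.22 at 2 weeks. In knockout, Igf2r was at 11.57 and 10.98, 10.46 and 10.37, 11.04 and 10.53, and 10.93 and 9.47 at the same times. Knockout lay above wild type untreated, at 6 days and at 2 weeks. At 18 hours the replicate 1 arrays were level (10.46 in both genotypes). The replicate 2 arrays, which sat with the other genotype in the list above, were at 10.37 in knockout and 10.96 in wild type. The average difference of Igf2r was 0.63 ± 0.20 (limma adjusted p = 0.291), and it did not pass over 14 arrays either (0.70 ± 0.24, adjusted p = 0.218). Ghr, the growth hormone receptor, had no consistent order of the genotypes: untreated levels overlapped, both knockout arrays were lower at 18 hours and at 6 days, and both were higher at 2 weeks. Its average difference was 0.30 ± 0.19 (limma adjusted p = 0.577).

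Of the binding proteins, Igfbp1, an insulin-repressed gene, was lower in knockout. Wild type levels were 8.74 and 8.67 untreated, 8.97 and 7.22 at 18 hours, 7.65 and 7.83 at 6 days, and 7.25 and 7.22 at 2 weeks. Those of knockout were 6.75 and 7.39 untreated, 8.06 and 8.11 at 18 hours, 7.32 and 6.70 at 6 days, and 6.78 and 6.60 at 2 weeks. Both knockout arrays of Igfbp1 thus lay below both wild type arrays untreated, at 6 days and at 2 weeks. Its differences at these times were -1.64, -0.73 and -0.54. The untreated one had an SE of 0.43 (limma adjusted p = 0.902) over 16 arrays and 0.24 (adjusted p = 0.0484) over 14, and the average was -0.73 ± 0.22 (adjusted p = 0.274) and -0.95 ± 0.14 (adjusted p = 0.0113). Igfbp3, the main carrier of IGFs in blood and the neighbouring gene of Igfbp1 on chromosome 11 in GRCm38.p6, showed no such difference (0.16 ± 0.25, limma adjusted p = 0.84 over 16 arrays and 0.937 over 14). The 3 other binding proteins passed neither over 16 nor over 14 arrays. Their average differences over 16 were 0.31 ± 0.15 for Igfbp4, an inhibitory binding protein cleaved by PAPP-A (adjusted p = 0.454), -0.72 ± 0.31 for Igfbp5, which binds matrix (0.408), and -0.32 ± 0.14 for Igfbp7, a low-affinity binding protein of vessel walls and podocytes (0.412).

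Counted over all members, the genotype average called 0 of 10 over 16 arrays, as it did for every gene tested (0% of 30142, with 3514 at an unadjusted p under 0.05; limma). Over 14 arrays it called 4 of 10, Igf1r higher and Igfals, Igfbp1 and Igf1 lower, against 1.72% of all genes. These same 4 were called over 13 arrays, where 2.61% of genes were called in either direction, and over 12, where 1.49% were. In untreated mice alone, 2 members (Igfals and Igfbp1) were called lower over 14 arrays, against 0.129%, and at 6 days 1 (Igfals), against 0.169%. Over 16 arrays none was called at 6 days (0.00664% of genes in either direction) or at 2 weeks (0.182%). In the untreated arrays, 5 of 10 members lay lower in knockout without overlap (Igf1, Igfals, Igfbp1, Igfbp5 and Igfbp7), against 21.7% of genes, and 3 of 10 higher (Igf1r, Igf2r and Igfbp3), against 24.2%, so the share of members that lay higher is near that of all genes. The median difference of the members was -0.06 over 16 arrays and -0.14 over 14, beside -0.008 and -0.001 over all genes.

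The 2 arrays set aside were chosen for genes that differ between the genotypes in these data, which favours any gene with the same pattern over arrays, as Igfals has, so the calls over 14 arrays are no second line of support. Which members were called also depended on single arrays: without the array labelled wild type 18 hours replicate 2, 1 member was called (Igfbp1, -0.95, limma adjusted p = 0.0362), against 0.153% of all genes, and without knockout 2 weeks replicate 2, 4 were, against 7.29%. Those 4 were Igf1r (0.84, adjusted p = 0.0191), Igf2r (0.81, 0.0161), Ghr (0.48, 0.0361) and Igfbp5 (-0.99, 0.032), of which only Igf1r is among the 4 called over 14 arrays.

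**Figure D2:**
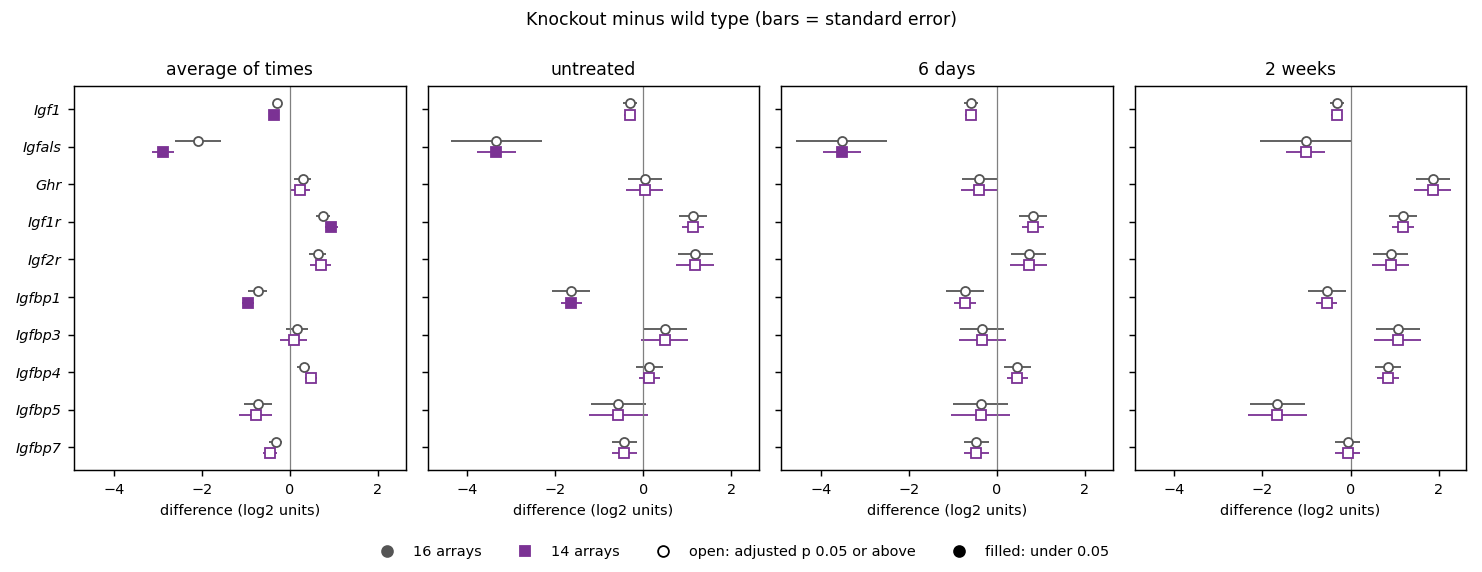
Knockout minus wild type difference averaged over the times, in deposited log2 units (horizontal axis), with its standard error, for each of the 10 genes. Grey circles are the fit of 16 arrays and purple squares that of 14, and filled symbols have a limma adjusted p under 0.05. Over 14 arrays this holds for Igf1r, Igf1, Igfbp1 and Igfals in the average, for Igfals and Igfbp1 untreated and for Igfals at 6 days. Over 16 arrays it holds for none.

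Genes downstream of the growth hormone receptor were listed with the other IGF pathway genes, of which 33 of 39 were measured on single-symbol probesets. None was called for the genotype average over 16 arrays (limma). The smallest p-values there belonged to Socs2, Stc2 and Cish, none of which passed. Socs2 encodes a feedback inhibitor of growth hormone signalling that STAT5 induces. In wild type it stood at 8.90 and 8.75 untreated, 8.48 and 6.72 at 18 hours, 9.05 and 9.02 at 6 days, and 8.52 and 8.73 at 2 weeks, and in knockout at 6.66 and 6.55, 6.94 and 8.35, 7.09 and 7.43, and 7.24 and 8.02. Outside the arrays labelled 18 hours replicate 2, no knockout array reached the lowest wild type level of Socs2. Its average difference was -1.24 ± 0.26 (adjusted p = 0.222) over 16 arrays and -1.63 ± 0.13 (adjusted p = 0.000631) over 14. Cish, another STAT5-induced inhibitor of cytokine receptors, stood in wild type at 9.25 and 8.98 untreated, 9.10 and 7.55 at 18 hours, 9.85 and 9.86 at 6 days, and 8.72 and 8.67 at 2 weeks. Knockout levels of Cish were 6.59 and 6.57 untreated, 7.76 and 9.23 at 18 hours, 7.64 and 7.70 at 6 days, and 9.58 and 8.18 at 2 weeks. They thus lay far below wild type untreated and at 6 days and overlapped it at 2 weeks, where replicate 1 was above both wild type arrays.

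The untreated differences of Cish (-2.54 ± 0.35, limma adjusted p = 0.0357) and Socs2 (-2.22 ± 0.24, adjusted p = 0.01) passed over 14 arrays, as did that of Socs2 at 6 days (-1.78 ± 0.24, adjusted p = 0.0229). Over 14 arrays the genotype average called 4 of the 33 lower and 0 higher, against 1.72% of all genes in either direction. Besides Socs2 and Cish (-1.47 ± 0.20, adjusted p = 0.00888), these were Jak2, the receptor's kinase (-0.46 ± 0.08, adjusted p = 0.0334), and Igf2, the fetal ligand (-0.80 ± 0.15, adjusted p = 0.0355). Jak2 ranged from 8.50 to 9.31 in wild type and from 8.42 to 9.18 in knockout, so its genotypes overlapped in the 16 arrays. Igf2 ranged from 4.97 to 6.42 and from 4.94 to 5.91, less than 1 unit above the array medians at its highest. Socs2 and Igf2 were the 2 of the 33 with no overlap between the 7 wild type and 7 knockout arrays, both lower, against 0.514% of all genes. The promoter window of Cish had 2 matches to TTCNNNGAA, the sequence that both upstream windows of Igfals also hold, while that of Igf1 had none. Of all windows, 8.3% hold a match. Socs2 had no window in the RefSeq table, and matches for Jak2 and Igf2 are not given here. Binding was not measured, and a part of this sequence in the differences was not tested. Ghr, upstream of these genes, stood in untreated mice at 14.66 and 14.22 in wild type and 14.47 and 14.48 in knockout. This difference was not called (0.03 ± 0.39, limma adjusted p = 0.999 over 16 arrays), and with 2 arrays per group it is imprecise.

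**Figure D3:**
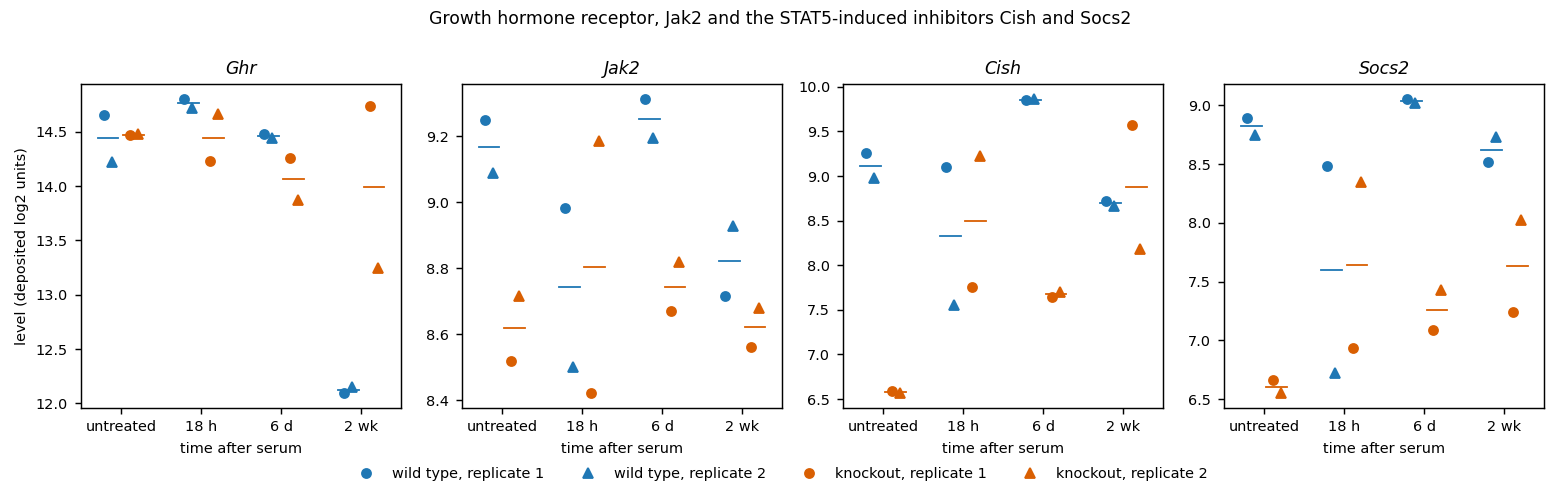
Deposited log2 levels (vertical axes) of genes of the growth hormone receptor pathway, 1 panel per gene, in the 8 groups, drawn as in the plot of all members (wild type blue, knockout orange, replicate 1 circles, replicate 2 triangles). Socs2 and Cish lie lower in knockout untreated and at 6 days, and at 18 hours the replicate 2 arrays are exchanged between the genotypes' levels.

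The second comparison asks how the members moved after serum in wild type. At 2 weeks, Ghr and Igfbp3 fell. The levels of Ghr were 14.66 and 14.22 untreated, 14.80 and 14.72 at 18 hours, 14.48 and 14.45 at 6 days, and 12.09 and 12.15 at 2 weeks. Ghr thus lay between 14.22 and 14.80 up to 6 days and below that range in both 2-week arrays, and it fell by 2.32 ± 0.39 log2 units from untreated (limma adjusted p = 0.0139). Igfbp3 stood at 9.82 and 10.46 untreated, 10.19 and 9.63 at 18 hours, 9.88 and 9.54 at 6 days, and 7.28 and 8.00 at 2 weeks. It fell by 2.50 ± 0.50 (limma adjusted p = 0.021) from untreated to 2 weeks. These were 2 of 10 members called lower and 0 of 10 higher, against 3.23% and 4.81% of all genes. Without overlap between the 2 arrays of each time, 9 of 10 members were lower at 2 weeks, all but Igfbp5, against 20.0% of genes. The median difference of the members was -0.95, beside 0.13 over all genes and 0.06 over the 33 other pathway genes.

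The remaining lower members did not pass over 16 arrays. They were Igfals (-2.70 ± 1.03, limma adjusted p = 0.114), Igfbp1 (-1.47 ± 0.43, adjusted p = 0.0605) and Igfbp4 (-1.08 ± 0.30, adjusted p = 0.0513), then Igf2r (-0.81, 0.189), Igf1r (-0.65, 0.182), Igfbp7 (-0.40, 0.348) and Igf1 (-0.21, 0.366). Over 14 arrays Igfals (adjusted p = 0.0291) and Igfbp1 (0.0292) were called besides Ghr (0.0333) and Igfbp3 (0.0459), which made 4 of 10 lower against 1.24% of genes. Over 13 arrays Igfbp4 (adjusted p = 0.0205) was called as well, 5 of 10 against 6.49%. Wild type levels of Igfbp4 were 13.73 and 14.09 untreated, 13.28 and 13.87 at 18 hours, 13.37 and 13.41 at 6 days, and 12.69 and 12.97 at 2 weeks. Igfbp5 was the exception in direction. Its wild type levels were 14.86 and 14.88 untreated, 13.99 and 13.26 at 18 hours, 15.25 and 15.51 at 6 days, and 15.57 and 16.72 at 2 weeks. Both 18-hour arrays lay below, and all later arrays above, the untreated pair, but the 2-week difference of 1.27 ± 0.62 did not pass (adjusted p = 0.189). Igfbp7 lay between 17.84 and 18.58 in all wild type arrays, in a table whose values run from 2.22 to 19.93.

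Several marker lists moved with these falls. Of the proximal tubule markers in wild type at 2 weeks 7 of 13 were called lower (limma; median difference -2.21), and their list mean was 13.35 and 14.58, against 15.97 and 16.43 untreated. With the tubule minus podocyte marker mean as a covariate the differences were -1.48 for Ghr (adjusted p = 0.0881) and -1.15 for Igfbp3 (adjusted p = 0.148), and no member was called. Podocyte markers (9 of 12 measured; 0 of 9 called) had list means of 9.46 and 10.28 untreated and 10.45 and 10.82 at 2 weeks, and 8 of 12 macrophage markers were called higher, with list means of 6.16 to 6.23 and 7.01 to 7.03. Tubule injury markers (2 of 6 called higher) went from 6.65 and 6.67 to 10.05 and 9.38, and mesangial markers (6 of 9 measured, 0 called) from 8.94 and 8.59 to 9.78 and 9.99. The genes with higher levels in female kidney (1 of 5 called lower) went from 14.17 and 13.89 to 10.25 and 11.23, in the arrays in which Igfals was also low. Of the fibroblast markers 3 of 6 were called higher, and of the distal nephron markers 2 of 10 lower. The tubule markers in the covariate were themselves lower in the wild type 2-week arrays, so that fit cannot tell tubule content from level per cell. The part of these lists in the members' differences was not tested. Hepatocyte markers, listed because the liver is the main source of Igf1, Igfals and Igfbp1, had list means between 5.69 and 6.63 over all 16 arrays (5 of 6 measured), and 0 of 5 were called here or for the genotype average.

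**Figure D4:**
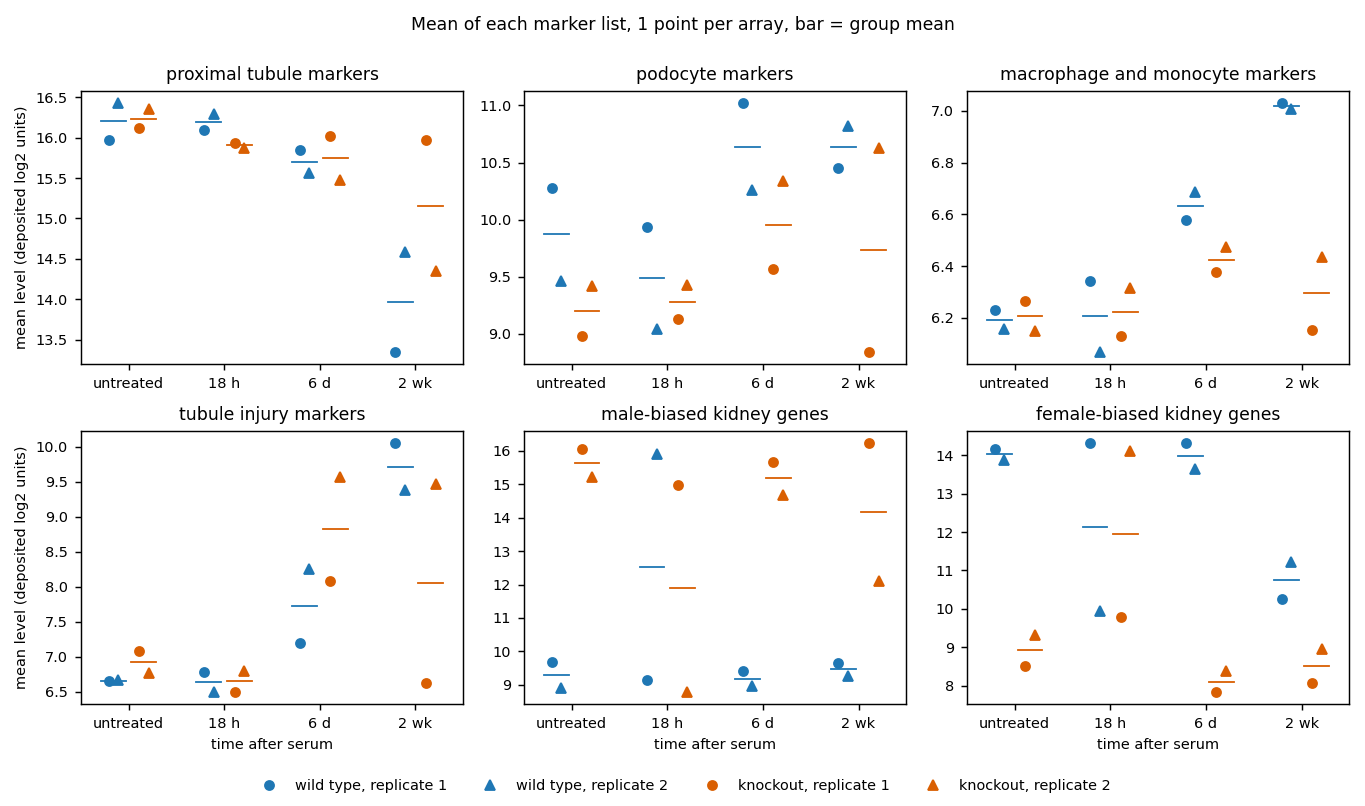
Mean deposited log2 level of each marker list (vertical axes) in each array of the 8 groups, coloured and shaped as in the plot of all members. Proximal tubule means are 13.35 and 14.58 in wild type at 2 weeks and 14.35 in knockout 2 weeks replicate 2, the 3 lowest arrays, and knockout 2 weeks replicate 1 (15.97 for tubule and 6.63 for injury markers) is unlike its replicate.

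The call of both genes was lost without wild type untreated replicate 1, without untreated replicate 2 or without 2 weeks replicate 2, with differences of -2.10 to -2.53 for Ghr (limma adjusted p = 0.0632 to 0.102) and -2.18 to -2.86 for Igfbp3 (0.0655 to 0.14). The split of all genes at 2 weeks moved with the scaling, from 1450 higher and 974 lower as deposited to 486 and 611 after quantile normalization and 538 and 2728 after median centring, but Ghr and Igfbp3 were called lower under each.

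Among the other pathway genes, 3 of 33 rose and 1 of 33 fell in wild type at 2 weeks, against 4.81% and 3.23% of all genes, so the share that fell is near that of all genes. Ccn1, a matricellular gene of the CCN family that was once grouped with the IGF binding proteins, rose by 3.11 ± 0.73 (limma adjusted p = 0.0315). Its levels were 9.03 and 7.71 untreated, 8.97 and 9.24 at 18 hours, 10.40 and 12.39 at 6 days, and 12.27 and 10.70 at 2 weeks, so its 2-week arrays were above every untreated and 18-hour array. Stc2, a stanniocalcin that inhibits the protease PAPP-A and so spares IGF binding proteins, rose by 1.05 ± 0.19 (adjusted p = 0.0161), from 5.57 and 5.37 to 6.29 and 6.74. Socs3, an inhibitor of cytokine signalling, rose by 0.51 ± 0.10 (adjusted p = 0.0198), from 4.04 and 4.17 to 4.50 and 4.73, values that lie below the array medians. Irs1, the adaptor that links the IGF1 and insulin receptors to PI3 kinase, fell by 1.07 ± 0.27 (adjusted p = 0.0388). It stood at 8.34 and 8.20 untreated, 8.30 and 7.35 at 18 hours, 7.87 and 7.80 at 6 days, and 7.17 and 7.23 at 2 weeks. Over 14 arrays Ccn1 was not among the calls. When each array was left out in turn, the call held in 13 of 16 fits for Stc2 and Socs3, 12 for Ccn1 and 4 for Irs1, and the fits that lost it included those without wild type untreated replicate 1 or replicate 2. With the tubule covariate Irs1 was called (adjusted p = 0.0347), and Ccn1, Stc2 and Socs3 were not (0.218, 0.108 and 0.0774). Stc2 was also the 1 pathway gene called between the genotypes at 2 weeks over 16 arrays (-1.12 ± 0.19, adjusted p = 0.0495), a call that held in 2 of 16 fits without 1 array (adjusted p up to 0.319) and not over 14 arrays. Its knockout levels were 5.18 and 5.16 untreated and 5.29 and 5.50 at 2 weeks.

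In the arrays labelled knockout, 2 weeks after serum was marked by the gap between its replicates. Ghr stood at 14.47 and 14.48 untreated, 14.23 and 14.66 at 18 hours, 14.25 and 13.88 at 6 days, and 14.74 and 13.24 at 2 weeks. Igfbp3 was at 10.78 and 10.47, 9.30 and 9.35, 9.84 and 8.91, and 9.57 and 7.86 at these times. For both genes replicate 2 at 2 weeks was the lowest knockout array, while replicate 1 was the highest knockout array for Ghr and lay within the range of the 18-hour and 6-day arrays for Igfbp3. Over 16 arrays 0 of 10 members were called at 2 weeks, against 0.109% of genes, and 0 of 10 at 6 days, against 0.0133%. The largest differences at 2 weeks were -1.91 ± 0.50 for Igfbp3 (limma adjusted p = 0.236) and -1.07 ± 0.40 for Igf2r (adjusted p = 0.508). With replicate 2 alone to stand for this group (13 arrays), 3 of 10 members were called lower, against 2.74% of genes, on the assumption that this lone array varies like the other groups. They were Igfbp3 (-2.77 ± 0.44, adjusted p = 0.0209), Igf2r (-1.80 ± 0.30, adjusted p = 0.0237) and Ghr (-1.23 ± 0.27, adjusted p = 0.0423). Replicate 2 had a tubule marker mean of 14.35, against 15.97 in replicate 1, and the part of this in the result was not tested. Without overlap, 6 of 10 members were lower at 2 weeks than untreated (Igf1, Igfals, Igf1r, Igf2r, Igfbp3 and Igfbp4), against 14.6% of genes.

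The 2-week replicates of Igfbp4 lay close together and those of Igfbp5 far apart. Igfbp4 in knockout was at 13.81 and 14.29 untreated, 13.76 and 12.97 at 18 hours, 13.93 and 13.77 at 6 days, and 13.79 and 13.57 at 2 weeks, so both 2-week arrays lay above both wild type arrays of that time. Igfbp5 was at 14.05 and 14.54 untreated, 13.49 and 13.23 at 18 hours, 14.51 and 15.51 at 6 days, and 13.39 and 15.57 at 2 weeks. Its lowest group mean was that of 18 hours in both genotypes. Igfbp7, which ranged from 17.55 to 18.19 in knockout, was lower than wild type without overlap in untreated and 6-day arrays (-0.43 and -0.47). Neither difference passed over 16 or over 14 arrays. Untreated, 21.7% of all genes lay lower in this way, and the share at 6 days is not given here. Among the other pathway genes none was called at 2 weeks over 16 arrays. Over 13, Cish (1.61 ± 0.16, adjusted p = 0.00906), Socs2 (1.42 ± 0.18, adjusted p = 0.0168) and the adaptor gene Shc1 (0.91 ± 0.18, adjusted p = 0.0348) were called higher and Esm1, an endothelial proteoglycan gene, lower (-1.91 ± 0.42, adjusted p = 0.042; limma). In the array left out there, Cish was higher still, at 9.58, but Shc1 was at 8.32, below its untreated levels of 8.50 and 8.53. Socs2 (7.24) and Esm1 (6.96) lay in that array between their untreated levels and those of replicate 2.

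**Figure D5:**
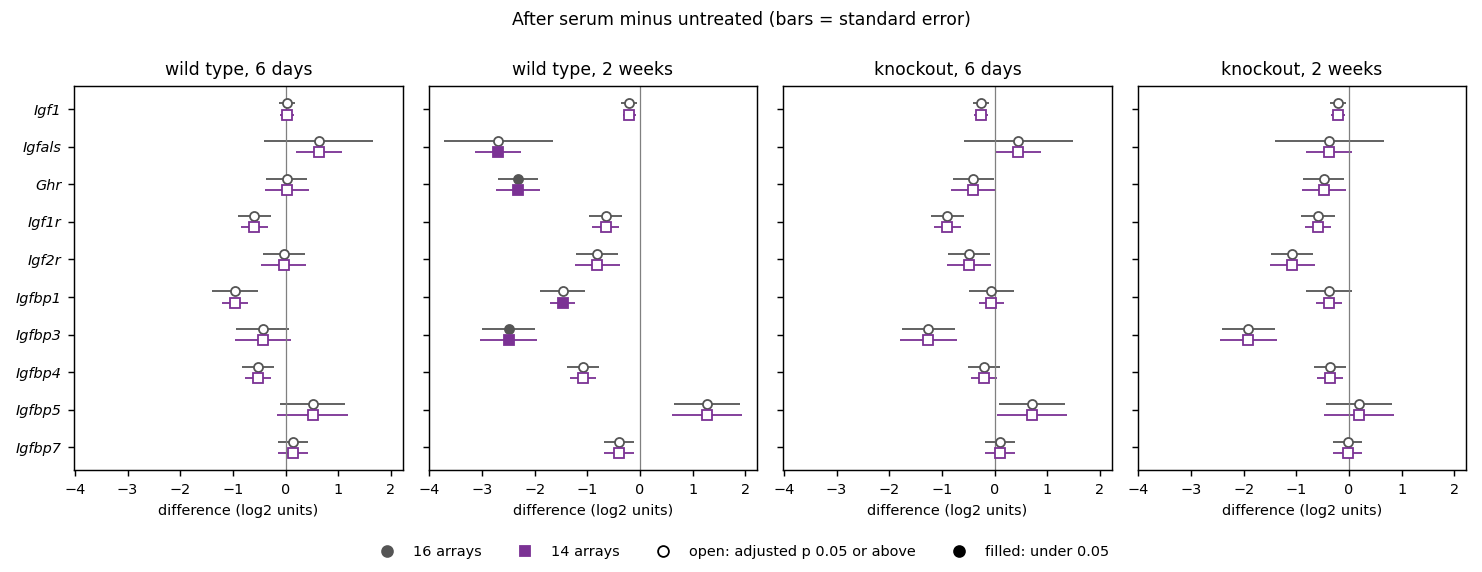
Difference between a time after serum and untreated, in deposited log2 units (horizontal axes), with its standard error, for each of the 10 genes. The panels show 6 days and 2 weeks in wild type and in knockout. Grey circles are the fit of 16 arrays and purple squares that of 14. Filled symbols have a limma adjusted p under 0.05. Over 16 arrays this holds for Ghr and Igfbp3 in wild type at 2 weeks and for no gene in knockout.

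At 18 hours and 6 days no member was called against untreated in either genotype (limma, 16 arrays). In knockout at 6 days, 0.0133% of all genes were called. The shares for the other contrasts are not given here, so the lack of calls is not shown to be particular to the members. The smallest p at 6 days in wild type was that of Igfbp1 (-0.96 ± 0.43, adjusted p = 0.713), and in knockout that of Igf1r (-0.89 ± 0.31, adjusted p = 0.488). At 18 hours, Igf1 had the smallest p in wild type (-0.34 ± 0.15) and Igf1r in knockout (-0.90 ± 0.31), both at an adjusted p of 1, and both contain an array that sat with the other genotype. The wild type and knockout responses each share their untreated arrays over the times. Whether the responses differed between the genotypes was tested directly for 10 members at 3 times, and 0 of 30 differences were called over 16 arrays. The share of all genes called in these contrasts is not given here, so this count is not shown to be particular to the members. The smallest p at 2 weeks was that of Ghr, with a knockout minus wild type response of 1.84 ± 0.55 (adjusted p = 0.639), and then that of Igfbp1 (1.09 ± 0.61, adjusted p = 0.681). Without knockout 2 weeks replicate 2 the difference for Ghr was called (2.58 ± 0.34, adjusted p = 0.00932), and over 13 arrays, without replicate 1, it was 1.09 ± 0.35 (adjusted p = 0.675). The size of a genotype difference in the Ghr response therefore rests on which of these 2 arrays is used. For the genotype difference at 2 weeks itself, 0 of 10 members passed over 16 arrays (Ghr 1.87 ± 0.39, adjusted p = 0.086, and Igf1r 1.19 ± 0.31, adjusted p = 0.125, had the smallest p), and without knockout replicate 2 there were 5, against 17.7% of all genes: Ghr, Igf1r, Igf2r and Igfbp3 higher and Igfbp5 lower.

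Ordered by group mean, the members followed a few patterns. For Ghr the order ran from wild type 18 hours (14.76 ± 0.06, SD, n = 2) down to wild type 2 weeks (12.12 ± 0.04), and knockout 2 weeks, next to it, was 1.87 units higher, more than their pooled SD of 0.75. Between the untreated groups, wild type 6 days and knockout 18 hours, neighbouring means of Ghr differed by less than their pooled SD. For Igfals the wild type 6-day (10.69 ± 0.74) and untreated (10.06 ± 0.36) groups were highest and knockout 2 weeks (6.34 ± 0.28) lowest. The 4 steps in between, from wild type untreated down to knockout 6 days, were each within the pooled SD of the neighbours, with SDs of 2.30 and 2.19 in the 18-hour groups. Igfbp1 was highest in wild type untreated (8.71 ± 0.05) and lowest in knockout 2 weeks (6.69 ± 0.13). Igf1r and Igf2r were highest in knockout untreated (13.41 ± 0.12 and 11.28 ± 0.41) and lowest in wild type 2 weeks (11.64 ± 0.15 and 9.29 ± 0.10), and Igfbp3 and Igfbp4 had the same first and last group. Igfbp5 was highest in wild type 2 weeks (16.14 ± 0.82) and lowest in knockout 18 hours (13.36 ± 0.18). Igf1 and Igfbp7 were highest in wild type 6 days, and lowest in knockout 6 days and knockout 18 hours. For Igfbp1 and Igf1, the step to the next group was within the pooled SD at the high and the low end. The same held for the lowest group of Igf1r, Igfbp5 and Igfbp7 and the highest group of Igfbp4, so these places are not resolved.

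The genes with levels most like each member over the 16 arrays are given by Pearson's r, as a description without a test, since arrays share groups and tissue makeup. Igfals was most like Steap3 (0.966), a metalloreductase, Ceacam1 (0.964) and the phosphate carrier gene Slc17a2 (0.963). Ghr was most like Nr1h3 (0.973), which encodes the oxysterol receptor LXR alpha, Zfp106 (0.972) and the mitochondrial import gene Grpel1 (0.972). Igf1r was most like Acox3 (0.952), Cct6b (0.951) and Uhrf1bp1l (0.945), and Igf2r like the carrier gene Slc5a8 (0.963), Marchf6 (0.959) and Glg1 (0.955). Igfbp3 stood nearest to Vkorc1 (0.96), the fructose carrier gene Slc2a5 (0.957) and Slc25a5 (0.954). For Igfbp5 these were Epas1 (0.979), which encodes the hypoxia-inducible factor HIF-2 alpha, C1ra (0.971) and Armcx3 (0.963). The values were lower for Igf1 (Slc22a14 0.917, Ccl27a 0.904, Sv2a 0.902), Igfbp1 (Ggt6 0.914, Rcbtb2 0.909, Celsr2 0.903), Igfbp4 (Dynll2 0.906, Nt5dc1 0.904, Nat8f6 0.896) and Igfbp7 (Orai1 0.882, Nfe2l1 0.874, Aplp2 0.866). No member appeared among the 3 nearest genes of another.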

How the data were processed

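Glomerular RNA of 16 mice, 2 in each of 8 groups, was measured on 1 array per mouse. The deposited values are log2 signals for 72688 probesets, summarised and normalized by the authors. The submitters' processing notes name Transcriptome Analysis Console and Affymetrix Expression Console; versions, summarisation method and build of the annotation are not given in the sources. For 152 genes the mean exceeded 16, the upper log2 limit of a 16-bit scan, so the values carry an unstated transformation and differences are in deposited log2 units. Probesets with several symbols (2146) or none (39938) were left out, and those with 1 symbol (30604; 827 symbols updated by Entrez identifier, 30294 found in RefSeq) were reduced to 30142 genes, without a filter on brightness. Array annotation can be old.

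Group means over 16 arrays were fitted per gene with R 4.3.3 and limma 3.58.1 (8 residual and 3.03 prior degrees of freedom, intensity trend), in 14 contrasts. Called means an adjusted p under 0.05 (Benjamini-Hochberg per contrast, all 30142 genes). Standard errors are from the moderated variance. All members, the called pathway genes (up to 4 per family of contrasts, or the 3 smallest p-values), and the 3 genes of highest r with each member are named; Shc1, Esm1 and Jak2 came from added settings. The members and gene lists were chosen with earlier results of these data known. The procedure was tested on simulated data. Same-numbered arrays are separate animals and their deviations did not go together, so the replicate number was no block. Alternatives changed the probeset rule, scaling, moderation, arrays used and covariates.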

Additional observations from a re-analysis of the deposited data

How the results depend on the processing

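The members' counts depended mainly on which arrays were used. The genotype average called 0 of 10 over 16 arrays, 0 to 4 when any 1 array was left out, and 4, 4 and 4 over 14, 13 and 12 arrays. By time, 0 of 40 genotype differences were called over 16 arrays, 2 with only the groups compared in the fit, 0 to 5 without 1 array, and 3 over each of 14, 13 and 12 arrays. In wild type after serum, 2 of 30 were called, 4 after median centring, 0 with the tubule covariate, 0 to 4 without 1 array, and 4, 5 and 4 over 14, 13 and 12 arrays. In knockout, 0 of 30 were called, 0 to 3 without 1 array and 3 over 13 arrays. For the difference of responses, 0 of 30 were called and 0 to 1 without 1 array. Leaving out dim genes, averaging probesets, quantile normalization and no intensity trend kept each of these 5 counts within 1.5 times its value. The replicate block gave 0, 0, 2, 0 and 0 calls in the same order, with the same 2 genes, Ghr (-2.32, limma adjusted p = 0.0154) and Igfbp3 (-2.50, adjusted p = 0.0238); the numbers did not pair the arrays (28 correlations of deviations, -0.679 to 0.593, median 0.04). Several single differences changed sign with the arrays used. Ghr in knockout at 2 weeks was 0.27 without replicate 2 of that group and -1.23 without its replicate 1. These were its highest and lowest values without 1 array, against -0.48 over all 16. The genotype difference of Igf1r at 18 hours was -0.09 over 16 arrays and 0.65 over 14. Igfals in wild type at 18 hours minus untreated was -1.42 over 16 and 0.21 over 14. The genotype average of Igfbp3 was 0.16 over 16 arrays and -0.13 over 13. The cause of these shifts was not tested. Precision is limited by 2 arrays per group, and no background or detection value is given for the dim genes Igf1, Igf2, Stc2 and Socs3.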
